A study of Rattus norvegicus with 12 samples.

Results

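Mitochondrial and peroxisomal fatty acid oxidation was followed in rat kidney through 33 genes: enzymes that activate fatty acids, carry them into mitochondria and shorten them, enzymes of the peroxisome, enzymes of ketone body and leucine breakdown, and 3 regulators. The genes were taken from a list of 34 by their single symbol in the platform annotation, out of 14217 genes with such a symbol. Acaa1a, a peroxisomal thiolase gene, was left out because its only probe set carried several symbols. Where a gene had more than 1 probe set, the one with the highest mean signal stood for it; 21 genes had 1 probe set and 12 had more.

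Total RNA was measured on 12 Affymetrix arrays. Whole rat kidneys made up 3 of the groups: 3 arrays came from embryonic day 13 (E13), 4 from embryonic day 18 (E18) and 3 from week 4 after birth (Wk4). Embryonic kidneys were processed straight after dissection. The other group (n = 2), called recombined tissue here, combined UBs formed in vitro that had not branched with MM, and was kept in culture for 6 days; in kidney development UB stands for the ureteric bud and MM for the metanephric mesenchyme. The study's design asked whether such tissue goes through the normal developmental steps, with a 3-fold difference as its measure of change. No strain, sex, genotype or treatment was named for any group, and the origin of the replicates (separate cultures, litters or animals) was not given. The p-values therefore cover only the spread between these arrays, part of which may be technical. Recombined tissue holds only what its starting pieces gave, and a whole kidney mixes all its cell types.

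Fatty acids are burned after they are joined to coenzyme A. Carnitine carries long chains across the mitochondrial membranes, and each turn of beta-oxidation then shortens the chain by dehydrogenation, hydration, a further dehydrogenation and cleavage, with electrons passed to the respiratory chain by the electron transfer flavoprotein. Peroxisomes shorten very long and branched chains and break down the hydrogen peroxide that this makes. In the mature kidney the proximal tubule draws most of its energy from this pathway, and the nuclear receptor PPARα with its coactivator PGC-1α drives many of its genes.

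Levels below are deposited signals in arbitrary intensity units, which compare a gene between arrays and not with another gene. Differences use the log2(signal + 271) scale, each with its SE; this scale understates the change of dim genes. All tests were limma's two-sided tests over 22599 probe sets, and a gene passed at a Benjamini-Hochberg adjusted p under 0.05. Array medians ran from 799 to 1020 and no pair of arrays was identical; the number of arrays limits the precision. The embryonic arrays fell into 2 sets in their deviations from the group means: E13 replicate 1 with E18 replicates 1 to 3, and E13 replicates 2 and 3 with E18 replicate 4. All 33 genes passed the filter on low signals, Ppara through Wk4 arrays alone and Acsm2, Acox2, Ehhadh and Hao2 through E18 and Wk4 arrays alone, so those 5 genes were kept because they were high in the groups where they were later compared.

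The pathway genes rose across kidney development, and 20 of them rose more between E18 and Wk4 than between E13 and E18, a shorter interval. The genes were chosen with earlier results of these data known, so their shares beside those of all probe sets are a description only. Between E13 and E18, 20 of the 33 genes (60.6%) rose and 0 fell, against 12.7% and 7.03% of all probe sets; at an unadjusted p under 0.05 the limma counts were 24 and 1. The median difference of the 33 was 0.52, beside -0.02 over all probe sets. Between E18 and Wk4, 32 (97.0%) rose and 0 fell, at an unadjusted p under 0.05 also 32 and 0, against 22.2% and 32.6% of all probe sets, with medians of 1.41 and -0.12. Over the whole span from E13 to Wk4 all 33 rose, against 26.2% of all probe sets that rose and 34.4% that fell, with medians of 2.01 and -0.11. These counts include the genes that the filter kept only through groups where they were high.

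Changes of at least 3-fold were rarer. They were reached by 3 genes (9.09%) between E13 and E18, namely Hao2, Cpt1a and Acsm2, where 1.93% of all probe sets rose and 0.407% fell by that much. Hao2 and Acsm2 were kept by the filter through E18 and Wk4 arrays alone, so their calls are not independent of it. Between E18 and Wk4 such changes were reached by 10 genes (30.3%), against 5.76% higher and 5.43% lower of all probe sets. Between E13 and Wk4 the count was 22 (66.7%), against 9.39% and 8.46%. In a bulk sample fewer cells of a type and less RNA per cell cannot be told apart, so these are levels of the whole tissue. Within the first set of embryonic arrays 15 genes rose between E13 and E18 and within the second 12, where E13 replicate 1 or E18 replicate 4 stood alone for its stage; Acadl, Hadha, Decr1 and Cat missed the threshold in both sets.

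**Figure D1:**
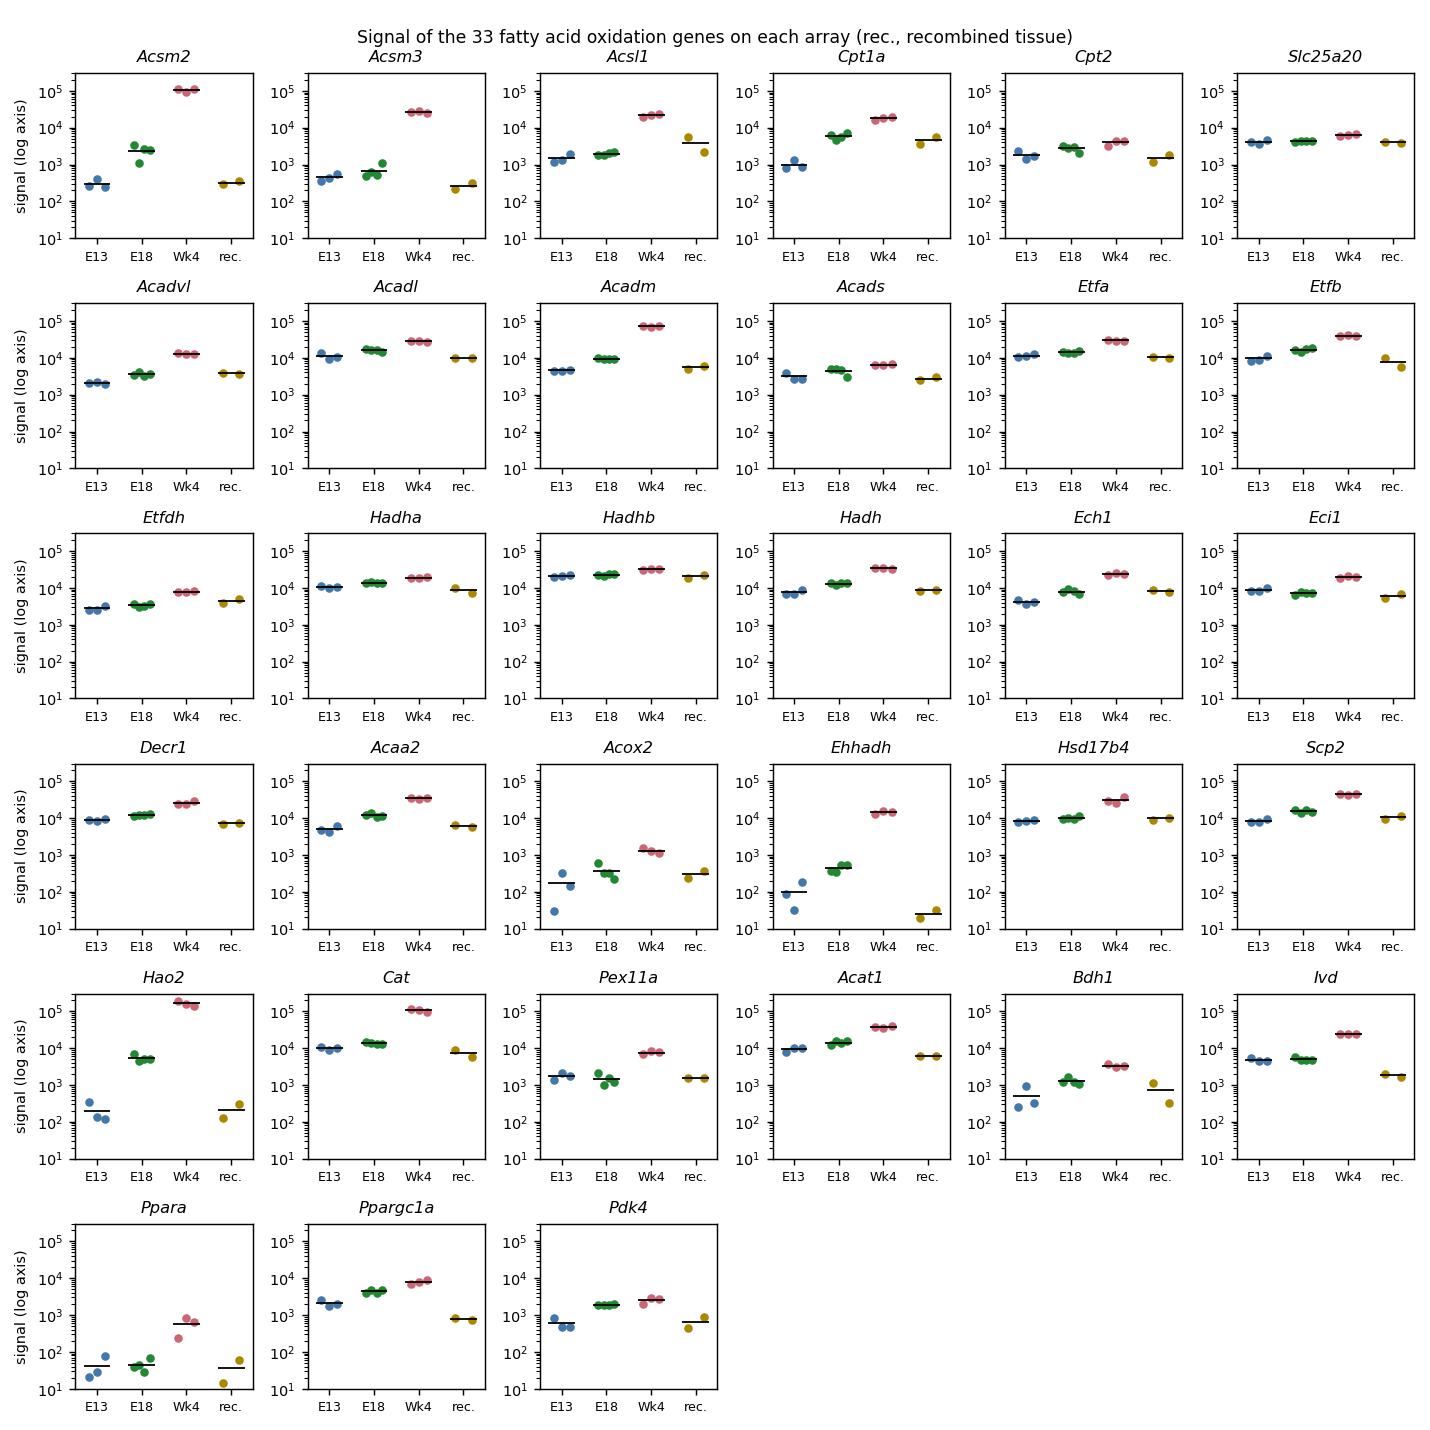
Signal of each of the 33 genes (vertical axis, log scale, arbitrary intensity units) on each of the 12 arrays by group; each point is an array and each bar a group mean. The Wk4 points lie above all E13 points for every gene, and for Hao2 they run from 137153 to 191915 against 120 to 342 at E13.

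Acsm2 and Acsm3, acyl-CoA synthetases that activate medium-chain fatty acids, had the steepest rise of the genes that bring fatty acids into the pathway. Acsm2 read 256, 394 and 247 at E13, 3294, 1069, 2608 and 2434 at E18, 115490, 95821 and 109167 at Wk4, and 292 and 356 in recombined tissue. Its 4 E18 arrays were all above the E13 arrays, and the recombined arrays lay among the E13 arrays. It rose by 2.13 ± 0.25 between E13 and E18 (adjusted p = 2.78e-05) and by 5.43 ± 0.25 between E18 and Wk4 (adjusted p = 3.17e-10). Acsm3 read 357, 432 and 562 at E13, 482, 624, 533 and 1084 at E18, 26124, 27838 and 24454 at Wk4, and 222 and 315 in recombined tissue. Its E13 and E18 arrays overlapped (0.37 ± 0.19, adjusted p = 0.217), and the late rise was 4.83 ± 0.19 (adjusted p = 1.01e-10). The early rise of Acsm3 passed with the set of embryonic arrays as a covariate (0.59, adjusted p = 0.0195).

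The 250 bases before the annotated start of Acsm3, a gene on the chromosome that also carries Acsm2, are shown because the gene had one of the steepest late rises and the stretch holds a copy of AGGTCA, the half-site bound by many nuclear receptors, in capitals at position -49 from the start (RefSeq, GRCr8, chr1:183564402-183564651, plus strand).
Acsm3: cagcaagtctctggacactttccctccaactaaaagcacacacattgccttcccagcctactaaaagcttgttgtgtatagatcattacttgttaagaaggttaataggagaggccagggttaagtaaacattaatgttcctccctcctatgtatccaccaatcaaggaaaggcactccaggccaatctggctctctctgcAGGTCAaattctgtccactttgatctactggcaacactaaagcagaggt

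Acsl1, which activates long-chain fatty acids, read 1169, 1361 and 1920 at E13, 1768, 1784, 2111 and 2183 at E18, 19270, 21786 and 23310 at Wk4, and 5645 and 2144 in recombined tissue. Its embryonic arrays overlapped and the Wk4 arrays stood far above them, with a rise of 3.28 ± 0.24 from E18 to Wk4 (adjusted p = 2.9e-08). A second Acsl1 probe set, dimmer, also passed between E13 and E18 (0.88 ± 0.16, adjusted p = 0.00151), where the main one did not (0.37 ± 0.24, adjusted p = 0.324). Cpt1a, the outer membrane carnitine palmitoyltransferase that controls the entry of long chains, read 795, 1331 and 838 at E13, 6403, 4613, 5558 and 7145 at E18, 15686, 17989 and 19769 at Wk4, and 3513 and 5690 in recombined tissue. It rose by 2.31 ± 0.19 between E13 and E18 (adjusted p = 9.66e-07) and by 1.56 ± 0.19 after E18 (adjusted p = 7.93e-06), so that no E18 array lay as low as any E13 array; a second probe set gave 0.95 for the first of these steps.

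The other carnitine shuttle genes had smaller differences. Cpt2, the inner membrane palmitoyltransferase, averaged 1851 ± 470 (SD, n = 3) at E13, 2740 ± 438 (SD, n = 4) at E18 and 4043 ± 701 (SD, n = 3) at Wk4. Its late rise of 0.52 ± 0.19 (adjusted p = 0.0345) no longer passed without E18 replicate 2 (0.53) or 4 (0.41) or without Wk4 replicate 2 (0.44) or 3 (0.45). Slc25a20, the carnitine-acylcarnitine exchanger, went from 4298 ± 202 at E18 to 6274 ± 377 at Wk4 (0.52 ± 0.11, adjusted p = 0.00127), and its E13 mean of 4097 ± 515 was within the spread of E18.

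Among the acyl-CoA dehydrogenases, which begin each turn of beta-oxidation, the medium-chain enzyme gene Acadm changed most. Acadm read 4462, 4494 and 4732 at E13, 9684, 9409, 9418 and 9241 at E18, 73009, 68666 and 75083 at Wk4, and 5102 and 5952 in recombined tissue. The 3 stages did not overlap, with rises of 1.01 ± 0.09 (adjusted p = 1.87e-06) and 2.90 ± 0.09 (adjusted p = 9.42e-12). Acadvl, the very long-chain dehydrogenase, read 2069, 2157 and 1976 at E13, 3486, 4226, 3245 and 3626 at E18, 13402, 12747 and 12457 at Wk4, and 3803 and 3718 in recombined tissue. Its stages did not overlap either, with rises of 0.74 ± 0.11 (adjusted p = 0.000278) and 1.75 ± 0.11 (adjusted p = 8.27e-09), and here the recombined arrays lay within the E18 range.

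The stretch before the start of Acadvl is shown as the only one among these genes with more than 1 copy of AGGTCA, at positions -169 and -17, both in capitals (RefSeq, GRCr8, chr10:55236706-55236955, minus strand, 250 bases).
Acadvl: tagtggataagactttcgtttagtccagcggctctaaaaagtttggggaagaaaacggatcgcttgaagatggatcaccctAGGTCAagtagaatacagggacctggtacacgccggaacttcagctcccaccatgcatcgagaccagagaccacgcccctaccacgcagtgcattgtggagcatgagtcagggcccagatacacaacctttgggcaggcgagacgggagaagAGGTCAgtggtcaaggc

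The long-chain and short-chain dehydrogenases moved less. Acadl averaged 11150 ± 2211 at E13, 15983 ± 1340 at E18 and 27775 ± 859 at Wk4, with rises of 0.52 ± 0.12 (adjusted p = 0.00611) and 0.79 ± 0.12 (adjusted p = 5.41e-05). Acads averaged 3108 ± 739, 4348 ± 913 and 6547 ± 136 at the 3 stages, and only its late step passed (0.59 ± 0.18, adjusted p = 0.0109). The early step of Acads (0.45 ± 0.18, adjusted p = 0.0926) passed without E13 replicate 1 (0.62) or without E18 replicate 4 (0.61). Either omission leaves a stage with arrays of only 1 embryonic set, and those fits do not separate stage from set. Over all alternatives the lowest early difference of Acads was 0.15.

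The electron transfer flavoprotein and its reductase carry the electrons of all these dehydrogenases. Its beta subunit gene Etfb read 8371, 8916 and 11494 at E13, 15910, 14724, 17252 and 18222 at E18, 38848, 41172 and 38244 at Wk4, and 9878 and 5571 in recombined tissue. The stages did not overlap (0.78 ± 0.16, adjusted p = 0.0033, then 1.24 ± 0.16, adjusted p = 1.26e-05), while the recombined arrays differed from each other and the lower of them was below every kidney array. The alpha subunit gene Etfa went from 11464 ± 1379 at E13 to 14329 ± 682 at E18 and 29505 ± 477 at Wk4, and its early rise of 0.32 ± 0.10 (adjusted p = 0.0289) no longer passed without E13 replicate 1 (0.25) or 2 (0.30) or without E18 replicate 1 (0.31) or 4 (0.29). The late rise of Etfa was 1.03 ± 0.10 (adjusted p = 3.9e-07). Etfdh, the reductase, averaged 2804 ± 391, 3370 ± 308 and 7918 ± 293 at the 3 stages and rose only in the late step (1.17 ± 0.13, adjusted p = 1.9e-06).

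The later steps of the mitochondrial spiral are carried by the trifunctional protein, by single enzymes for short chains and by helpers for unsaturated chains. Hadh, the short-chain hydroxyacyl-CoA dehydrogenase, read 6907, 6946 and 8827 at E13, 13235, 12318, 13173 and 13504 at E18, 35415, 34136 and 31859 at Wk4, and 8475 and 8683 in recombined tissue. Acaa2, the mitochondrial thiolase that cleaves the chain, read 4621, 4139 and 5924 at E13, 12229, 13905, 10899 and 11403 at E18, 34104, 33685 and 35127 at Wk4, and 6592 and 5684 in recombined tissue. In both genes the 3 stages did not overlap and the recombined arrays were below all E18 arrays. Hadh rose by 0.78 ± 0.10 (adjusted p = 7.43e-05) and 1.35 ± 0.10 (adjusted p = 4.24e-08), and Acaa2 by 1.27 ± 0.13 (adjusted p = 4.93e-06) and 1.49 ± 0.13 (adjusted p = 1.39e-07).

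Ech1, an isomerase that moves double bonds, read 4629, 3700 and 4255 at E13, 7620, 9235, 8034 and 6781 at E18, 22771, 25563 and 23995 at Wk4, and 8499 and 7875 in recombined tissue. It rose by 0.87 ± 0.12 (adjusted p = 9.73e-05) and then 1.58 ± 0.12 (adjusted p = 3.95e-08), and the recombined arrays lay within the E18 range. Decr1, the dienoyl-CoA reductase of unsaturated chains, averaged 8831 ± 746 at E13, 11888 ± 539 at E18 and 25342 ± 2701 at Wk4, with rises of 0.42 ± 0.10 (adjusted p = 0.00822; 0.36 and no longer passing without E13 replicate 2) and 1.07 ± 0.10 (adjusted p = 4.34e-07). Eci1, another isomerase, averaged 8902 ± 772 at E13, 7238 ± 587 at E18 and 19719 ± 1311 at Wk4. Its early difference was -0.29 ± 0.12 (adjusted p = 0.107), the lowest of the 33 and a call with each array centred on its median (-0.37), and its late rise was 1.41 ± 0.12 (adjusted p = 1.3e-07).

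Hadha and Hadhb encode the alpha and beta subunits of the trifunctional protein and had small changes side by side. Hadha averaged 10753 ± 863 at E13, 13958 ± 438 at E18 and 19066 ± 603 at Wk4, and Hadhb 20875 ± 991, 22858 ± 1547 and 32236 ± 1401. The late rises were 0.44 ± 0.11 for Hadha (adjusted p = 0.004) and 0.49 ± 0.09 for Hadhb (adjusted p = 0.000449). The early rise of Hadha, 0.37 ± 0.11 (adjusted p = 0.0326), no longer passed without E13 replicate 2 (0.31) or 3 (0.38) or without E18 replicate 1 (0.37), 2 (0.35) or 3 (0.39), and a further Hadha probe set passed in none of the comparisons; Hadhb had 0.13 ± 0.09 (adjusted p = 0.392). In the rat annotation the genes stand head to head, with 300 bases between their starts, so that 200 bases are shared by the stretch of 250 bases before one start and 50 after it and the same stretch of the other. The sequence before the start of Hadha is shown for that arrangement, with the shared bases in capitals (RefSeq, GRCr8, chr6:31907551-31907800, plus strand).
Hadha: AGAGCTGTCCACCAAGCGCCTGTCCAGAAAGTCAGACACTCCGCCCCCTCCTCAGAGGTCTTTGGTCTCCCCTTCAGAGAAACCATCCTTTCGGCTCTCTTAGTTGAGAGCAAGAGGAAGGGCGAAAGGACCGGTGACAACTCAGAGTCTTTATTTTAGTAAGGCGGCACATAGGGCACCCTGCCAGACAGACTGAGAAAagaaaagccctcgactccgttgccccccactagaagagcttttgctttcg

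**Figure D2:**
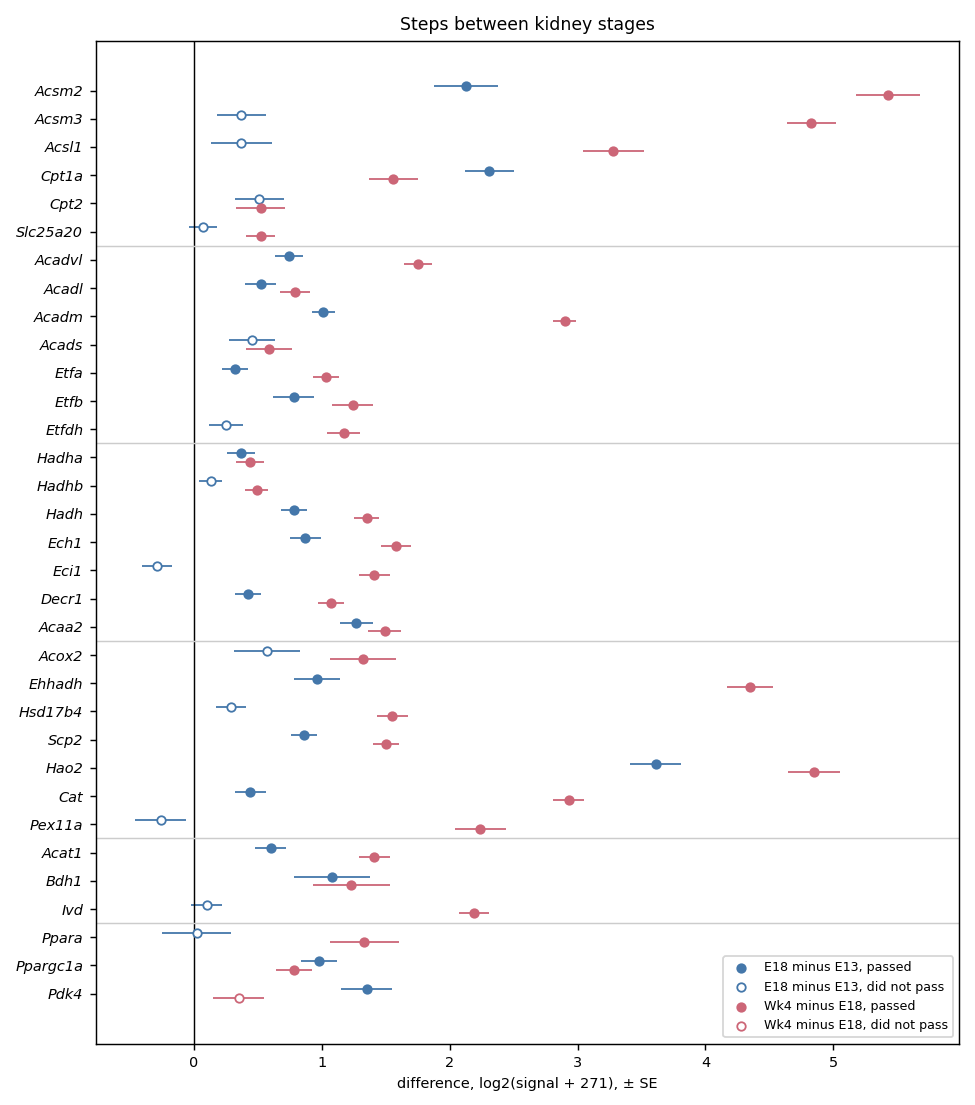
Difference of each of the 33 genes on the log2(signal + 271) scale (horizontal axis, ± SE) between E13 and E18 and between E18 and Wk4, with filled points for an adjusted p under 0.05. The late step is filled for 32 genes and the early step for 20, and Hao2 has the largest early difference at 3.61.

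Peroxisomal genes included the widest changes of the pathway. Hao2, a peroxisomal hydroxy acid oxidase of the kidney, read 342, 133 and 120 at E13, 6899, 4557, 5163 and 4917 at E18, 191915, 157488 and 137153 at Wk4, and 123 and 305 in recombined tissue. It rose by 3.61 ± 0.20 (adjusted p = 1.84e-08) and then 4.85 ± 0.20 (adjusted p = 1.1e-10), and recombined tissue stayed within the E13 range. Ehhadh, the bifunctional enzyme of peroxisomal beta-oxidation, read 87.3, 32.2 and 180 at E13, 363, 349, 541 and 530 at E18, 13104, 15318 and 14246 at Wk4, and 19.8 and 31.2 in recombined tissue. Its stages did not overlap, with an early rise from a mean of 99.8 to one of 446 (0.96 ± 0.18, adjusted p = 0.00166, and 2.43 with a pseudocount of 1) and a late one of 4.35 ± 0.18 (adjusted p = 1.39e-10). Both recombined arrays were below the lowest kidney array.

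Cat, the catalase that removes hydrogen peroxide, read 10375, 9030 and 10101 at E13, 14330, 13319, 13193 and 12911 at E18, 111496, 108178 and 94383 at Wk4, and 8621 and 5710 in recombined tissue. Its late rise of 2.93 ± 0.12 (adjusted p = 1.42e-10) stood beside an early one of 0.44 ± 0.12 (adjusted p = 0.021), which no longer passed without E13 replicate 2 (0.38) or E18 replicate 1 (0.41). The stretch before the Cat start is shown because it was one of the peroxisomal genes with the widest late rise and holds AGGTCA at position -169, in capitals (RefSeq, GRCr8, chr3:110329527-110329776, minus strand, 250 bases).
Cat: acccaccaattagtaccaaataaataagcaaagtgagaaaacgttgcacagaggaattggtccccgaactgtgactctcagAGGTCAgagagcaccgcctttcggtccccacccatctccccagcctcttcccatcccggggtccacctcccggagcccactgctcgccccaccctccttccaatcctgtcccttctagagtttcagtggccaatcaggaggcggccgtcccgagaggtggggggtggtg

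Scp2, a thiolase and lipid carrier of the peroxisome, read 7738, 7883 and 9132 at E13, 16228, 13999, 15997 and 14563 at E18, 43820, 41450 and 45082 at Wk4, and 9643 and 11051 in recombined tissue. Hsd17b4, the bifunctional enzyme for branched and very long chains, read 7598, 8468 and 8662 at E13, 9538, 9996, 9577 and 11361 at E18, 28411, 26051 and 36369 at Wk4, and 9082 and 10284 in recombined tissue. Scp2 rose in both steps (0.86 ± 0.10, adjusted p = 2.04e-05, then 1.50 ± 0.10, adjusted p = 9.99e-09). Its recombined arrays lay between those of E13 and E18, but the difference from E13 did not pass (0.32 ± 0.12, adjusted p = 0.0537). In a second, dimmer probe set of Scp2 recombined tissue averaged 3483, below 4267 at E13 and 5550 at E18. There the difference from E13 did not pass either (-0.27 ± 0.13, adjusted p = 0.143). Hsd17b4 passed only in the late step (1.55 ± 0.12, adjusted p = 6.31e-08), although all of its E18 arrays were above its E13 arrays (0.29 ± 0.12, adjusted p = 0.118).

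Acox2, the acyl-CoA oxidase for branched chains and bile acid precursors, read 30.3, 326 and 144 at E13, 589, 324, 328 and 225 at E18, 1511, 1234 and 1134 at Wk4, and 240 and 356 in recombined tissue. Only its Wk4 arrays stood clear of the rest (1.32 ± 0.26 over E18, adjusted p = 0.000522). Pex11a, which drives the division of peroxisomes, read 1399, 2062 and 1734 at E13, 2102, 970, 1509 and 1175 at E18, 6846, 8293 and 7594 at Wk4, and 1571 and 1571 in recombined tissue. It likewise rose only in the late step (2.24 ± 0.20, adjusted p = 2.27e-07), while its second probe set passed in the early step (0.75, adjusted p = 0.0306) where the main one had -0.26 ± 0.20 (adjusted p = 0.41). That call was lost without E13 replicate 1 or 3 or E18 replicate 1 or 3, at 0.67 to 0.71.

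Ketone bodies and leucine are broken down to acetyl-CoA, the product of fatty acid oxidation, and the 3 genes of these routes all rose after E18. Acat1, the mitochondrial acetoacetyl-CoA thiolase, read 7677, 10151 and 9821 at E13, 12290, 15554, 13423 and 15113 at E18, 38336, 35122 and 39749 at Wk4, and 5949 and 6115 in recombined tissue. Ivd, the isovaleryl-CoA dehydrogenase of leucine breakdown, read 5379, 4355 and 4459 at E13, 5806, 4847, 4864 and 4774 at E18, 23479, 24038 and 24506 at Wk4, and 2015 and 1636 in recombined tissue. In both genes the recombined arrays were below every kidney array. Acat1 rose by 0.60 ± 0.12 (adjusted p = 0.00194) and 1.41 ± 0.12 (adjusted p = 1.22e-07), whereas the embryonic arrays of Ivd overlapped (0.10 ± 0.12, adjusted p = 0.627) before a late rise of 2.19 ± 0.12 (adjusted p = 1.31e-09). Bdh1, the hydroxybutyrate dehydrogenase that interconverts ketone bodies, read 253, 933 and 328 at E13, 1177, 1662, 1217 and 1046 at E18, 3620, 3136 and 3212 at Wk4, and 1139 and 330 in recombined tissue. Its early rise of 1.08 ± 0.30 (adjusted p = 0.0203) no longer passed without E13 replicate 1 (0.85) or 3 (0.95) or without E18 replicate 2 (0.97), and its late rise was 1.23 ± 0.30 (adjusted p = 0.00294).

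Of the 3 regulators 2 rose in each step. Ppargc1a, which encodes the coactivator PGC-1α, read 2508, 1772 and 2027 at E13, 3943, 4823, 3956 and 4847 at E18, 6807, 7784 and 8675 at Wk4, and 841 and 748 in recombined tissue. The 3 stages did not overlap (0.98 ± 0.14, adjusted p = 0.000196, then 0.78 ± 0.14, adjusted p = 0.000304), and both recombined arrays were below all kidney arrays. Pdk4, a kinase that shuts off pyruvate dehydrogenase and so spares glucose, read 848, 465 and 485 at E13, 1867, 1879, 1905 and 1982 at E18, 2008, 2850 and 2721 at Wk4, and 435 and 877 in recombined tissue. It rose by 1.35 ± 0.20 in the early step (adjusted p = 0.00023) and was the 1 gene of the 33 that did not pass in the late step (0.35 ± 0.20, adjusted p = 0.162), but its second probe set had an early difference of 0.00 ± 0.19 (adjusted p = 0.993). That probe set also did not pass between E13 and Wk4 (0.46 ± 0.20, adjusted p = 0.0653). Ppara, the nuclear receptor gene, was dim throughout the embryo at 42.0 ± 31.2 (SD, n = 3) and 45.2 ± 17.7 (SD, n = 4), and reached 564 ± 291 (SD, n = 3) at Wk4 (1.33 ± 0.27 over E18, adjusted p = 0.000723).

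The sizes of both steps were compared within the same fit, as the late step minus the early step. The late step covered a longer time than the early one, and the change per day was not compared. In 20 of the 33 genes (60.6%) the late step was larger and in 1 (3.03%) smaller, against 10.8% and 19.8% of all probe sets, with a median of 0.71 beside -0.12 over all probe sets. Acsm3 (4.46 ± 0.33, adjusted p = 2.86e-07), Ehhadh (3.39 ± 0.31, adjusted p = 1.92e-06) and Acsm2 (3.31 ± 0.42, adjusted p = 3.92e-05) had the largest excess of the late step. Ehhadh and Acsm2 were kept by the filter through E18 and Wk4 arrays alone. For Cpt1a (-0.75 ± 0.33, adjusted p = 0.0984), Cpt2 (0.00 ± 0.33, adjusted p = 0.997), Hadha (0.07 ± 0.19, adjusted p = 0.816) and Ppargc1a (-0.20 ± 0.24, adjusted p = 0.59) the steps were not told apart. The 1 smaller late step was that of Pdk4 (-1.01 ± 0.34, adjusted p = 0.0375), which missed the threshold without any 1 of 8 arrays: E13 replicate 2 or 3, E18 replicate 1, 2, 3 or 4, or Wk4 replicate 1 or 3, with values from -1.06 to -0.86. The larger late step of Ppara (1.32 ± 0.46, adjusted p = 0.0423) missed it without any 1 of 9 arrays (1.10 to 1.39), all but Wk4 replicate 1 of the kidney arrays, and that of Hadh (0.58 ± 0.17, adjusted p = 0.0199) without E18 replicate 2 (0.52) or 3 (0.59). Centring each array on its median moved this comparison by 0.14 over all probe sets and left 21 larger and 0 smaller. Quantile normalization left 14 larger and 0 smaller, with Hadh, Ech1, Decr1, Scp2, Acat1 and Ppara no longer passing. With a pseudocount of 1 Hao2 no longer passed (0.01, against 1.24 ± 0.33). Within the second set of embryonic arrays 10 were larger.

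In recombined tissue as many oxidation genes were above the E13 level as below it. Against E13, 5 of the 33 genes (15.2%) were higher and 5 (15.2%) lower, close to the 15.9% and 15.2% of all probe sets, and the median was -0.02 beside 0.00. By at least 3-fold 1 gene (3.03%), Cpt1a, was higher and 0 were lower, against 3.95% and 0.912% of all probe sets; limma gave 8 higher and 7 lower at an unadjusted p under 0.05. With each array centred on its median, which shifted all probe sets by -0.19, 4 genes were higher and 8 lower, Hadha, Decr1 and Etfa joining the lower ones, and a fit on the E13 and recombined arrays alone left 3 higher and 2 lower.

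The higher genes were Cpt1a (1.94 ± 0.23, adjusted p = 2.36e-05), Acsl1 (1.13 ± 0.28, adjusted p = 0.00736), Ech1 (0.93 ± 0.14, adjusted p = 0.000189), Acadvl (0.79 ± 0.13, adjusted p = 0.000479) and Etfdh (0.62 ± 0.15, adjusted p = 0.00615). The second Cpt1a probe set gave 1.09. All of their recombined arrays were above all of their E13 arrays, with Etfdh at 3971 and 4936 against 2582, 2573 and 3255. Acsl1 rested on recombined replicate 1, without which the difference was 0.48 (adjusted p = 0.143). Its dimmer probe set gave 1.36 ± 0.20 (adjusted p = 0.000127) and still passed without that array (1.06, adjusted p = 0.00306). Etfdh missed the threshold without recombined replicate 2 (0.47). Cpt1a, Ech1 and Acadvl passed in every alternative run.

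The lower genes were Ivd (-1.25 ± 0.14, adjusted p = 1.35e-05), Ppargc1a (-1.14 ± 0.17, adjusted p = 0.000165), Acat1 (-0.58 ± 0.14, adjusted p = 0.0056), Eci1 (-0.54 ± 0.14, adjusted p = 0.00932) and Cat (-0.47 ± 0.15, adjusted p = 0.0258). Ivd and Ppargc1a passed in every alternative run. Of the other Ppargc1a probe sets 1 gave -1.79 and the other -0.98 (adjusted p = 0.061), while a second Acat1 probe set did not pass (-0.08, adjusted p = 0.806). Eci1 missed the threshold without recombined replicate 1 (-0.34), and Cat without recombined replicate 2 (-0.18), E13 replicate 1 (-0.43) or E13 replicate 3 (-0.45).

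Set against E18, recombined tissue was lower in 20 genes (60.6%) and higher in 1 (3.03%), beside 15.5% and 12.7% of all probe sets, and its median was -0.70 beside 0.00. By at least 3-fold 3 genes (9.09%) were lower, Hao2 (-3.55 ± 0.22, adjusted p = 7.97e-08), Ppargc1a (-2.12 ± 0.16, adjusted p = 4.79e-07) and Acsm2 (-2.06 ± 0.28, adjusted p = 9.37e-05), against 1.67%, and 0 were higher, against 2.73%. Hao2 and Acsm2 were kept by the filter through E18 and Wk4 arrays alone. Ivd (-1.35 ± 0.13, adjusted p = 4.6e-06), Pdk4 (-1.28 ± 0.23, adjusted p = 0.000776), Ehhadh (-1.26 ± 0.21, adjusted p = 0.000378), Acat1 (-1.18 ± 0.13, adjusted p = 1.46e-05), Etfb (-1.12 ± 0.18, adjusted p = 0.000379), Acaa2 (-0.95 ± 0.14, adjusted p = 0.000182) and Cat (-0.91 ± 0.14, adjusted p = 0.000225) were also lower. The second Pdk4 probe set did not pass against E18 (0.09 ± 0.22, adjusted p = 0.799). By role the lower genes were 3 of 6 in activation and the carnitine shuttle, 5 of 7 dehydrogenases and electron carriers, 4 of 7 in the later mitochondrial steps, 4 of 7 in the peroxisome, 2 of 3 in ketone body and leucine breakdown and 2 of 3 regulators.

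Of the genes that were higher than at E13, 4 did not pass against E18: Cpt1a (-0.37 ± 0.22, adjusted p = 0.239), Ech1 (0.05 ± 0.13, adjusted p = 0.809), Acadvl (0.05 ± 0.13, adjusted p = 0.825) and Etfdh (0.37 ± 0.14, adjusted p = 0.0686). Both comparisons share the recombined arrays. The 1 higher gene, Acsl1 (0.76 ± 0.27, adjusted p = 0.0475), had arrays that overlapped those of E18 and a difference of 0.12 without recombined replicate 1. It also missed the threshold without E13 replicate 2, without E18 replicate 1, 2 or 3 and without any single Wk4 array, where values ran from 0.72 to 0.80. Among the lower genes Acsm3 (-0.66) and Cpt2 (-0.50) missed the threshold without recombined replicate 1, and Acads without E18 replicate 1 (-0.56), 2 (-0.55) or 3 (-0.58) or recombined replicate 1 (-0.51) or 2 (-0.73).

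Against Wk4, recombined tissue was lower in all 33 genes, beside 20.9% of all probe sets lower and 32% higher, with a median of -1.92 beside 0.19. Of these, 22 (66.7%) were lower by at least 3-fold, against 7.32% lower and 7.88% higher by that much of all probe sets. The largest differences were those of Hao2 (-8.40 ± 0.24, adjusted p = 3.1e-12), Acsm2 (-7.49 ± 0.30, adjusted p = 7.26e-11), Acsm3 (-5.62 ± 0.23, adjusted p = 1.01e-10) and Ehhadh (-5.61 ± 0.22, adjusted p = 5.92e-11). Hao2, Acsm2 and Ehhadh were kept by the filter through E18 and Wk4 arrays alone. The smallest differences were those of Slc25a20 (-0.62 ± 0.14, adjusted p = 0.00143) and Hadhb (-0.63 ± 0.11, adjusted p = 0.000279). The second Pdk4 probe set did not pass against Wk4 (-0.37 ± 0.23, adjusted p = 0.197). Centring on array medians shifted all probe sets by -0.11 against E18 and by -0.16 against Wk4, and the counts of lower genes were again 20 and 33.

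**Figure D3:**
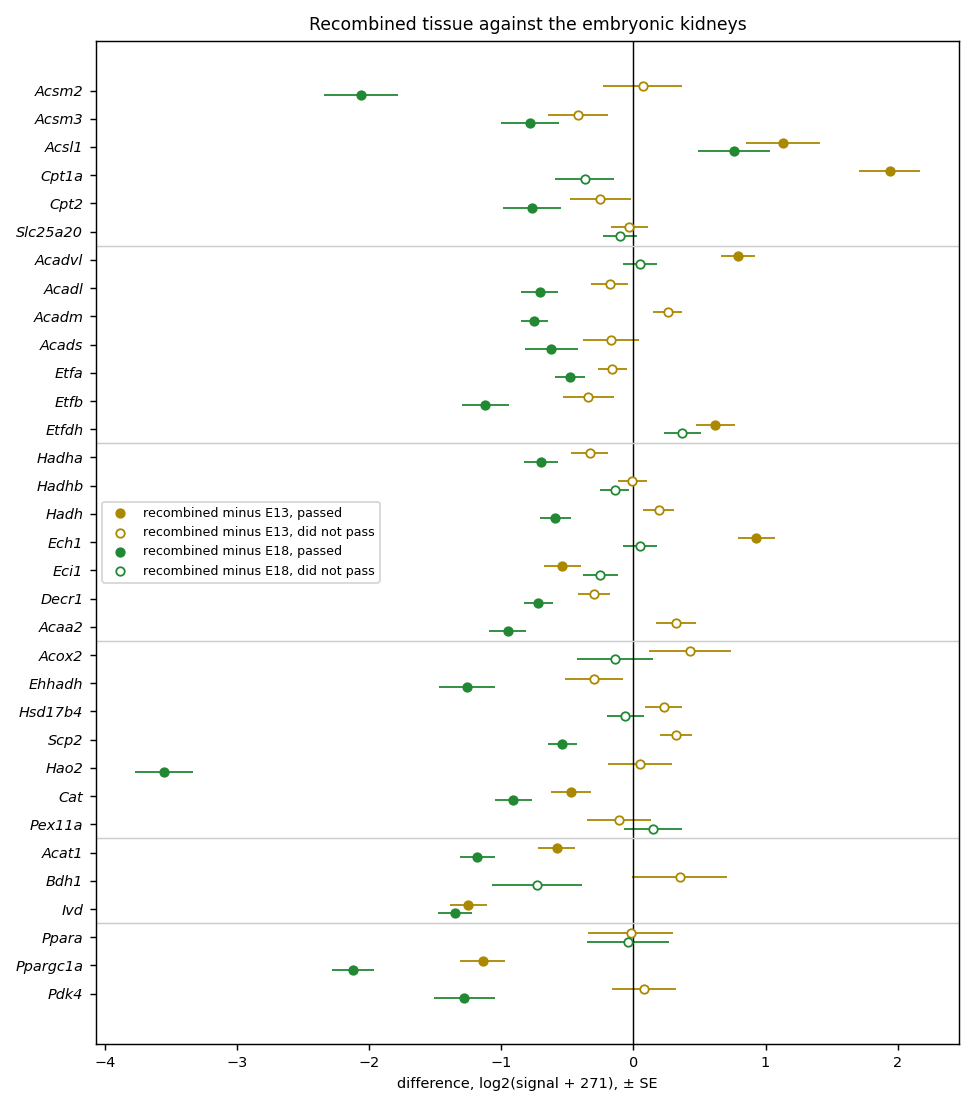
Difference of recombined tissue from E13 and from E18 for each of the 33 genes on the log2(signal + 271) scale (horizontal axis, ± SE), with filled points for an adjusted p under 0.05. Cpt1a stands at 1.94 above E13, while Hao2 and Acsm2 lie at 0.05 and 0.07 against E13 and at -3.55 and -2.06 against E18.

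Other genes of the pathway came from a list of further transporters, synthetases, dehydrogenases, thioesterases and ketone body genes. This list too was chosen with earlier results of these data known. It had 49 members measured and 45 that passed the filter. Between E13 and E18, 18 (40%) rose and 2 (4.44%) fell, beside 12.7% and 7.03% of all probe sets. Between E18 and Wk4, 36 (80%) rose and 3 (6.67%) fell, beside 22.2% and 32.6%. Fabp4 and Fabp3, fatty acid binding proteins, led the early step (2.69 ± 0.34, adjusted p = 4.75e-05, and 2.02 ± 0.15, adjusted p = 2.98e-07). Slc27a2, a transporter and very long-chain acyl-CoA synthetase, and Acss2, which activates acetate, led the late one (5.75 ± 0.27, adjusted p = 3.91e-10, and 4.76 ± 0.12, adjusted p = 6.54e-12). Recombined tissue had 9 (20%) higher and 8 (17.8%) lower against E13, near the 15.9% and 15.2% of all probe sets. Fabp4 (4.40 ± 0.40, adjusted p = 2.1e-06) and the fatty acid receptor gene Cd36 (2.03 ± 0.54, adjusted p = 0.00982) were furthest above. The recombined arrays of Cd36 lay far apart, at 1541 and 9588, and its difference was 0.81 without recombined replicate 1 (adjusted p = 0.212) and 3.26 without recombined replicate 2. Against E18 it had 3 (6.67%) higher and 16 (35.6%) lower, beside 12.7% and 15.5% of all probe sets. The thioesterase gene Acot1 (-2.18 ± 0.17, adjusted p = 5.24e-07) and Fabp3 (-2.17 ± 0.17, adjusted p = 5.35e-07) were lowest.

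Of 12 peroxin genes, which build peroxisomes, 6 (50%) rose and 2 (16.7%) fell over the whole span from E13 to Wk4, beside 26.2% and 34.4% of all probe sets. None of the 12 changed by 3-fold. Between E13 and E18, 1 (8.33%) rose and 2 (16.7%) fell, beside 12.7% and 7.03% of all probe sets. Between E18 and Wk4, 4 (33.3%) rose and 1 (8.33%) fell, beside 22.2% and 32.6%. Pex16, which starts new peroxisome membranes, rose by 1.04 ± 0.28 in the late step (adjusted p = 0.00532) and Pex5, the receptor for imported enzymes, by 0.85 ± 0.21 (adjusted p = 0.00273). In recombined tissue 4 of the 12 (33.3%) were lower than at E13 and 4 than at E18, beside 15.2% and 15.5% of all probe sets. Among them was Pex19, which inserts membrane proteins (-1.14 ± 0.16 against E13, adjusted p = 0.000121).

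Of 24 further regulators, 3 (12.5%) rose and 0 fell between E13 and E18, with 4 and 3 at an unadjusted p under 0.05 in limma. In this step 12.7% of all probe sets rose and 7.03% fell, so the share of these regulators that rose was near that of all probe sets. Hnf4a, a nuclear receptor of the proximal tubule, rose by 4.04 ± 0.15 (adjusted p = 2.22e-10) and the estrogen-related receptor gene Esrrg by 2.26 ± 0.14 (adjusted p = 6.47e-08). Between E18 and Wk4, 14 (58.3%) rose and 5 (20.8%) fell, beside 22.2% and 32.6% of all probe sets. Hnf4a (3.68 ± 0.15, adjusted p = 8.42e-11) and the kinase gene Pdk2 (3.44 ± 0.26, adjusted p = 4.63e-08) were ahead. In recombined tissue Hnf4a averaged 33.9 against 35.6 at E13 and 4820 at E18 (-4.04 ± 0.17 against E18, adjusted p = 1.03e-09), and Esrrg was lower than at E18 by a difference of -3.04 ± 0.16 (adjusted p = 1.67e-08). Against E13, 1 of the 24 (4.17%, beside 15.9% of all probe sets) was higher, Pdk2 (1.35 ± 0.31, adjusted p = 0.00431). Another 3 (12.5%, beside 15.2%) were lower, among them Tfam, which maintains mitochondrial DNA (-0.99 ± 0.14, adjusted p = 0.000126).

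Fatty acid synthesis, the opposite pathway, moved in both directions in the kidney and had more higher than lower genes in recombined tissue. Of its 15 genes 1 (6.67%) rose and 3 (20%) fell between E13 and E18, beside 12.7% and 7.03% of all probe sets. Between E18 and Wk4, 5 (33.3%) rose and 6 (40%) fell, beside 22.2% and 32.6%. In that step the desaturase gene Scd2 fell by 2.82 on the log2 scale (SE 0.12, adjusted p = 2.2e-10). In recombined tissue 7 (46.7%) were higher and 2 (13.3%) lower than at E13, beside 15.9% and 15.2% of all probe sets. Against E18, 9 (60%) were higher and 0 lower, beside 12.7% and 15.5%, with 9 and 2 at an unadjusted p under 0.05 in limma. The malic enzyme gene Me1, a source of NADPH for synthesis, was higher by 2.03 ± 0.17 than at E13 (adjusted p = 1.08e-06) and by 2.16 ± 0.16 than at E18 (adjusted p = 4.42e-07), and the desaturase gene Scd by 1.60 ± 0.32 than at E18 (adjusted p = 0.00173).

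Branched-chain amino acid and propionate breakdown, which Ivd belongs to, rose in the kidney. Of 15 genes 9 (60%) rose and 0 fell in the early step, beside 12.7% and 7.03% of all probe sets. In the late step 15 (100%) rose and 0 fell, beside 22.2% and 32.6%. At an unadjusted p under 0.05 the limma counts were 12 and 0, then again 15 and 0. Aldh6a1, an enzyme of valine breakdown, led both steps (1.32 ± 0.11, adjusted p = 8.5e-07, and 2.94 ± 0.11, adjusted p = 4.49e-11). In recombined tissue 2 (13.3%) were higher and 5 (33.3%) lower than at E13, beside 15.9% and 15.2% of all probe sets. Against E18, 0 were higher and 10 (66.7%) lower, beside 12.7% and 15.5%. Bckdha and Bckdhb, the subunits of the branched-chain ketoacid dehydrogenase, were lowest in both comparisons (-0.99 ± 0.20 and -0.94 ± 0.22 against E13, adjusted p = 0.00202 and 0.00508). Bckdhb was not called against E13 without recombined replicate 1 (-0.48).

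Genes of the citric acid cycle, the respiratory chain and other mitochondrial parts were counted as a measure of mitochondria. Of 16, 9 (56.2%) rose and 0 fell in the early step, beside 12.7% and 7.03% of all probe sets. In the late step 13 (81.2%) rose and 0 fell, beside 22.2% and 32.6%. None rose by 3-fold in either step, and the late median was 0.66 beside the 1.41 of the oxidation genes. The largest late rises were those of Ogdh (1.50 ± 0.12, adjusted p = 5.72e-08) and Sdha (1.30 ± 0.08, adjusted p = 5.43e-09), enzymes of the cycle. In recombined tissue 14 of the 16 (87.5%) were lower than at E18 and 0 higher, beside 15.5% and 12.7% of all probe sets. Against E13, 6 (37.5%) were lower and 1 (6.25%) higher, beside 15.2% and 15.9%. The chaperonin gene Hspd1 was among those lower than at E13 (-0.81 ± 0.12, adjusted p = 0.000202). The difference between this list and the oxidation genes was not tested.

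All 14 proximal tubule, 2 thick ascending limb and 3 collecting duct markers rose between E13 and Wk4, as the oxidation genes did, beside 26.2% of all probe sets. Their part in the results was not tested. The kidneys carried the markers of their tissue. Of 14 proximal tubule genes outside the pathway, 14 rose between E18 and Wk4, beside 22.2% of all probe sets. Between E13 and E18, 11 of these 14 genes (78.6%) rose, beside 12.7%. Their summed signal was 9070 to 10906 at E13, 51753 to 71074 at E18, 789765 to 872003 at Wk4 and 22322 to 23633 in recombined tissue, while that of the 33 oxidation genes was 157110 to 176140, 244513 to 251617, 989451 to 1039601 and 162580 to 164556. In recombined tissue 4 of the 14 (28.6%) were higher than at E13, beside 15.9% of all probe sets, among them the aminopeptidase gene Anpep (2.17 ± 0.15, adjusted p = 1.64e-07). Against E18, 10 (71.4%) were lower, beside 15.5%, with Pdzk1, a brush border scaffold, at 55.6 against 7860. The thick ascending limb markers Umod and Slc12a1 summed to 231 to 461 in recombined tissue and 156 to 413 at E13. Of them 1 (50%) rose in the early step and both in the late step, beside 12.7% and 22.2% of all probe sets. Of 3 collecting duct markers 2 (66.7%) rose in the early step and 3 in the late step. In recombined tissue 1 of the 3 (33.3%), Hsd11b2, was higher than at E13 (2.50 ± 0.17, adjusted p = 1.08e-07), at E18 (2.69) and at Wk4 (0.48). Of all probe sets 15.9%, 12.7% and 32% were higher in these comparisons. The water channel genes Aqp2 and Aqp3 were lower than at E18 and at Wk4, where 15.5% and 20.9% of all probe sets were lower. Of 6 cell cycle genes all 6 fell between E18 and Wk4, beside 32.6% of all probe sets. In recombined tissue 2 of the 6 (33.3%) were lower than at E13, beside 15.2%.

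Macrophage markers stood apart in recombined tissue. Of 10, 8 passed the filter and all 8 were higher than at E13, at E18 and at Wk4. Of all probe sets 15.9%, 12.7% and 32% were higher in these comparisons. The sums given here are over all measured markers of a list, those that missed the filter included. For macrophage markers the summed signal was 101482 to 180059 against 6966 to 7919 at E13, 18177 to 21841 at E18 and 37535 to 40650 at Wk4. Lyz2, the lysozyme of macrophages, averaged 63069 there and 1074 at E13, while Cd163 and Itgam did not pass the filter. Macrophages also express Acsl1, Cpt1a, Cd36 and Fabp4, and the part of this marker rise in the higher values of these genes was not tested. Of 4 adipocyte markers all 4 rose between E18 and Wk4, as the oxidation genes did, beside 22.2% of all probe sets. The summed signal of adipocyte markers was 680 to 978 at E18 and 2392 to 3976 at Wk4. Their part in the results was not tested. The late call of Cfd, the adipsin gene (0.47, adjusted p = 0.0462), was lost without any 1 of 9 arrays, at 0.41 to 0.53. In recombined tissue 1 of the 4 (25%, beside 15.9% of all probe sets) was higher than at E13, Cfd at 3538 against 266 (2.84 ± 0.22, adjusted p = 5.41e-07). Cfd made up most of the sum of 3930 to 5378 there, beside 472 to 1216 at E13, and Adipoq, Plin1 and Plin4 did not pass. Of 4 muscle markers 3 (75%, beside 15.9% of all probe sets) were higher than at E13, with Myl1 at 1692 against 227. Erythroid markers were lower than at E13 in 4 of 4 cases, beside 15.2% of all probe sets, with Hbb at 408 against 6044. Of 4 hepatocyte markers limma called 0 between E13 and E18, between E18 and Wk4 and between recombined tissue and E13 or E18, with 1 higher at an unadjusted p under 0.05 in each of the kidney steps. Between E13 and Wk4, 1 (25%, beside 9.39% of all probe sets) rose by at least 3-fold, the albumin gene Alb (162 to 2041, 1.92 ± 0.54, adjusted p = 0.00631, and 1.10 without Wk4 replicate 1). In recombined tissue 2 (50%, beside 20.9% of all probe sets) were lower than at Wk4, Alb and Apob. The call of Alb was lost without Wk4 replicate 1 (-0.88) or either recombined array (-1.71 and -1.70). The sum of these markers was 1060 to 1930 at E13, 1785 to 2860 at E18, 2289 to 8695 at Wk4 and 1299 to 1480 in recombined tissue.

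The promoters were searched for AGGTCA on either strand in the window from 250 bases before to 50 after the annotated start. Of the 33 genes 29 had such a window in RefSeq. AGGTCA occurred in 6 of the 29 (20.7%), the genes Acsm3, Acadvl, Hadhb, Eci1, Hsd17b4 and Cat, and in 5415 of 33469 windows of all genes (16.2%). A direct repeat of AGGTCA with 1 base between the copies, the form of site that PPARα binds with its partner, occurred in 0 of the 29 and in 18 of the 33469 (0.0538%). The letters describe these windows only, and no factor's binding was measured.

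Acsm2 and Acsm3 lie near each other on chromosome 1 in the rat annotation, and the genes between Umod and Acsm3 were looked up after the values of these genes had been seen. Of 10 protein-coding genes in this stretch 8 were measured, with 9 probe sets. Umod, the urine protein gene of the thick ascending limb at one end of the stretch, rose by 8.07 ± 0.22 between E18 and Wk4 (adjusted p = 6.54e-12). The synthetase genes Acsm1 and Acsm5 rose by 3.20 ± 0.17 (adjusted p = 1.05e-09) and 1.94 ± 0.19 (adjusted p = 6.55e-07), and of these Acsm1 also rose between E13 and E18 (1.20 ± 0.17, adjusted p = 0.000134). Thumpd1, which lies among them, fell by 0.34 on the log2 scale (SE 0.10, adjusted p = 0.00912) in the late step, so neighbours moved in both directions. Eri2, an exonuclease gene whose annotated span holds Acsm3, had a probe set that rose by 4.17 ± 0.25 (adjusted p = 3.7e-09) and another that fell by 0.98 on the log2 scale (SE 0.17, adjusted p = 0.000193); which transcript each of them reads was not tested. In recombined tissue Acsm1 was lower than at E18 (-0.67 ± 0.19, adjusted p = 0.0171) and Acsm5 did not pass (-0.24 ± 0.21, adjusted p = 0.446).

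**Figure D4:**
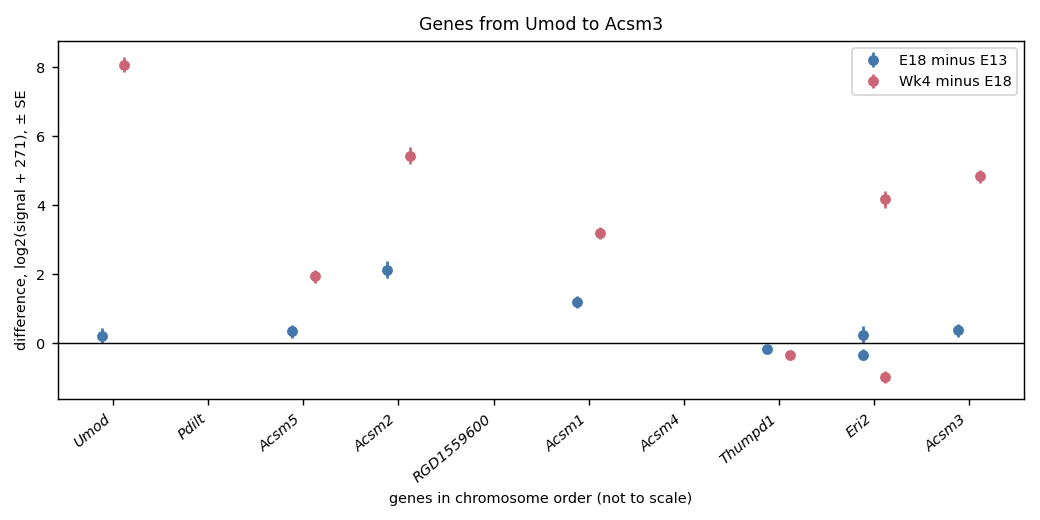
Difference between E18 and Wk4 and between E13 and E18 on the log2(signal + 271) scale (vertical axis, ± SE) for the probe sets of the genes from Umod to Acsm3, in chromosome order; genes without a point were not measured or did not pass the filter. Umod stands highest at 8.07 in the late step, and the probe sets of Eri2 lie at 4.17 and -0.98.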

How the data were processed

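Per the submitters' processing notes GCOS produced the deposited values, which are linear intensity per probe set; its settings are not given here. Without its lowest and highest 2% of values each of the 12 arrays had an equal mean, so the authors' values carry a global scaling that would hide a change in RNA content. Per the labels' protocols total RNA was labelled as biotinylated cRNA.

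Of 31099 probe sets 57 controls were left out. The offset in log2(signal + 271) is the 25th percentile of the values. The filter kept 22599 probe sets that exceeded the 40th percentile of an array on 2 arrays or more, and removed 8443. Tests used limma 3.58.1 (R 4.3.3; lmFit, contrasts.fit, eBayes with an intensity trend) in a single model of all arrays with 8 residual degrees of freedom, and Benjamini-Hochberg adjustment covered all 22599. Of 31042 probe sets 20826 had 1 symbol, 436 several and 9780 none; 20758 symbols matched the current annotation by gene ID. On simulated arrays with known changes over 22599 probe sets, 4-fold changes were recovered in 96% (E18 against E13), 90% (Wk4 against E13) and 96% (recombined against E13) of cases, and 2-fold changes in 70%, 51% and 57%. The simulated noise was independent between arrays, few probe sets were changed and the 2 sets of embryonic arrays were not built in. Recovery in the real arrays may therefore differ.

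The members and lists were chosen with earlier results of these data known. All measured members are described; signals on every array are given for those that changed at least 3-fold in a comparison of kidney stages or differed from E13 and E18 in the same direction in recombined tissue. Of each other list (further oxidation and ketone genes, peroxisome biogenesis, further regulators, fatty acid synthesis, branched-chain and propionate breakdown, mitochondrial content, and markers of proximal tubule, thick ascending limb, collecting duct, macrophages, adipocytes, hepatocytes, muscle, erythroid cells and the cell cycle) the 2 genes with the widest difference could be named. Replicate numbers were not treated as pairs in the main fit, because the labels do not say that they mark a shared origin. Alternatives covered the pseudocount, normalization, filter, variance model, arrays in the fit, probe set choice, fold, replicate block, each array left out and, added after seeing the data, the sets of embryonic arrays. Promoter sequences are from RefSeq (GRCr8), with no genome or protein sequences used here.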

Additional observations from a re-analysis of the deposited data

Results flagged for a closer look

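Among the 4 E18 arrays, 2 of the 33 genes had an array far from the others by Dixon's test, which chance alone passes in about 1 of 20 groups. Acads, the short-chain acyl-CoA dehydrogenase, read 2997 on E18 replicate 4, the only E18 array of the second embryonic set, and 4609 to 4968 on the other E18 arrays. Ivd, the isovaleryl-CoA dehydrogenase, read 5806 on E18 replicate 1 and 4774 to 4864 on the others. The other groups held too few arrays for this test.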

How the results depend on the processing

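Over 5728 alternative values of the member differences, 5543 kept their side of the threshold, 151 no longer passed, 34 newly passed, and 0 reversed with a pass on either side. Of the 5543, 81 changed sign with no pass on either side. Of 660 counts, 47 moved by more than 1.5 times, and the cause was not tested. Between E13 and E18 the 20 higher genes became 12 within set 2 of the embryonic arrays and 16 to 21 with an array left out, the 0 lower became 1 with median centring, and the 3 higher by 3-fold became 5 with a pseudocount of 1 and 7 at 2-fold. Between E18 and Wk4 the 10 higher by 3-fold became 25 at 2-fold. Recombined against E13, the 5 higher became 3 on the arrays compared alone (4 to 7 with an array left out), the 5 lower 8 with median centring and 2 on the arrays compared alone, the 1 higher by 3-fold 0 with 4 times the pseudocount or the mean of probe sets and 2 at 2-fold (1 to 2 with an array left out, 2 without recombined replicate 2), and the 0 lower by 3-fold 1 with a pseudocount of 1 and 2 at 2-fold. Recombined against E18, the 1 higher gene became 0 with a pseudocount of 1, quantile normalization, median centring, no filter, no trend, the arrays compared alone, the set covariate and set 2 (0 to 1 with an array left out), and the 3 lower by 3-fold became 5 with a pseudocount of 1, 1 with 4 times the pseudocount and 8 at 2-fold. In the late minus early step the 20 larger became 10 within set 2, and the 1 smaller became 0 with quantile normalization, median centring, no filter, the mean of probe sets, the replicate block and within either set (0 to 1 with an array left out). Of 15 same-numbered pairs across groups 1 had a correlation of deviations over 0.1 (-0.172 to 0.312). With 2 to 4 arrays a group this cannot decide whether the numbers mark a shared origin, which the labels do not say. With the replicate block 19 genes rose between E13 and E18 and 31 between E18 and Wk4. The number of arrays, 2 to 4 a group, and signals near background limit the dim genes Ppara, Acox2 and Ehhadh.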
